A study of Mus musculus with 4 samples.

Results

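Interferon-response CD4 T cells are T helper lineage cells whose RNA is rich in the genes that interferons switch on. In these libraries they were selected on measured UMIs (unique molecular identifiers, the counted RNA molecules). A member was a barcode with 500 or more genes and no more than 10% mitochondrial UMIs that had at least 1 UMI of Cd3d, Cd3e or Cd3g, at least 1 of Cd4 and 0 of Cd8a and Cd8b1. They also had at most 3 UMIs of the macrophage genes Lyz2, C1qa, C1qb and Csf1r in sum, and at least 4 UMIs of the interferon-induced genes Ifit1, Ifit3, Rsad2 and Usp18 in sum. The rule found 62 cells among 5546 gated CD4 T cells, 20137 barcodes that passed the filters and 21855 barcodes in all. Of the 62, 23 came from the Tc1 library and 39 from the Tc9 library. They were set against the cells of the same gate and library with a sum of 0, here called sum-0 cells, of which there were 1022 in Tc1 and 4137 in Tc9. The 4 rule genes were read from the same matrices, so the differences from sum-0 cells describe the chosen cells and carry no test.

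The cells were sorted as CD4+ T cells from tumours of wild-type B6 mice (Thy1.2+) that bore a tumour called chimeric in the labels. The mice were given CD8 T cells of the Thy1.1+ Pmel-1 kind together with adjuvant. Pmel-1 cells carry a transgenic receptor for a melanocyte antigen. The transferred cells were Tc1 cells, the interferon-gamma-producing type of CD8 T cell, in the group called Tc1, and Tc9 cells, a type cultured to produce interleukin 9, in the group called Tc9. Both groups had thus received transferred cells and adjuvant, and no group without them was analysed here. Tumours of 3 mice were pooled per group on day 30 after tumour inoculation, were digested with enzymes and enriched on Percoll before sorting, and gave 1 RNA library and 1 T cell receptor library per group. The age of the mice and the cells that made up the chimeric tumour are not given in the sources used here. With 1 pooled library per group, differences between Tc1 and Tc9 cannot be told apart from differences between pools, sorts or libraries.

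Type I interferons bind the receptor chains Ifnar1 and Ifnar2, whose kinases activate transcription factors such as Stat2. Stat2 and Irf9 are part of a complex that binds the interferon-stimulated response element in the promoters of antiviral genes. Interferon-gamma acts through another receptor and raises guanylate-binding proteins and antigen presentation genes. Usp18, Socs1 and Socs3 limit the signal, and T cells in tumours can show such a programme next to activated, regulatory and memory states.

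The rule genes encode Ifit1, which binds viral RNA, its partner Ifit3, Rsad2 (viperin), an enzyme that makes a chain-terminating nucleotide, and Usp18, which removes the ubiquitin-like protein Isg15 from its targets. The promoter windows of Ifit1, Rsad2 and Isg15 are shown because they hold the motif GAAANNGAA, the core of the response element, and because Ifit1 gave the most rule UMIs in Tc9 and Isg15 was found in more members than any other of the 15 genes with the highest ratios below. Each line gives the 160 bases before the annotated start, read from RefSeq on GRCm38.p6, 5′ to 3′ on the gene's strand, with matches to the motif or its reverse complement in capitals.
Ifit1, chr19:34640729-34640888, plus strand: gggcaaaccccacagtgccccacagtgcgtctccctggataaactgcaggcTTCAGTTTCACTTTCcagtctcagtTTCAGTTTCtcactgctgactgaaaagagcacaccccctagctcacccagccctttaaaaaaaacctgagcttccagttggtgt
Rsad2, chr12:26456453-26456612, minus strand: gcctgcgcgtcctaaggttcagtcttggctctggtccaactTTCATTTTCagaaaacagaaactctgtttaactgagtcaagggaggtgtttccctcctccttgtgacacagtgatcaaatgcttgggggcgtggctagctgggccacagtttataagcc
Isg15, chr4:156200819-156200978, minus strand: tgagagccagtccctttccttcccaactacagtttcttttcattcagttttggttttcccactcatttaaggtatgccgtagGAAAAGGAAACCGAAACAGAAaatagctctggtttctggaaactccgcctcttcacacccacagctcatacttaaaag
The 3 windows lie upstream of the annotated genes Ifit1 (ENSMUSG00000034459, chromosome 19, 34640889 to 34650009), Rsad2 (ENSMUSG00000020641, chromosome 12, 26442743 to 26456452) and Isg15 (ENSMUSG00000035692, chromosome 4, 156199424 to 156200818). The first match began 109 bases before the start in Ifit1, where 2 of the 3 matches overlap, 119 bases before it in Rsad2, and 78 bases before it in Isg15, where all 3 overlap.

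Over all 32851 RefSeq promoter windows of 250 bases before a start, 7.13% held the motif on either strand. Of the rule genes Ifit1, Ifit3 and Rsad2 had an entry, and the windows of all 3 held it. Among the 15 genes with the highest mean ratio in both libraries (listed further on), 14 had an entry, with the motif in 10 of 16 windows (62.5%), and among the 142 genes higher in both libraries 119 had an entry, with the motif in 41 of 152 windows (27.0%). The 86 genes lower in both gave 6 of 79 windows (7.59%), near the 6.74% of all genes counted. Irf7, Ifit2, Cmpk2 and Oasl2 had no match, which says only that these letters are not in the window. A match describes the sequence and shows no binding.

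Depth was 106053410 UMIs in 13406 barcodes for Tc1 and 50713493 UMIs in 8449 barcodes for Tc9. The gate took 10.1% of the kept Tc1 barcodes and 52.9% of those of Tc9, and 148 barcodes occurred in both libraries, 2 of them members. Members had a median of 4646 UMIs in Tc1 (lowest 1756, highest 21792) and 5801 in Tc9 (lowest 3159, highest 17681), against 3427 and 5510 in sum-0 cells. Outside the gate, macrophage barcodes (no Cd3 UMI and at least 10 UMIs of the 4 macrophage genes) numbered 2908 in Tc1, of which 329 (11.3%) had 4 or more rule UMIs, and 24 in Tc9, of which 0 had. The Tc1 library therefore held many macrophages with the same transcripts, and their part in the Tc1 values was not tested.

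Members made up 1.91% of the gated cells in Tc1 (exact Clopper-Pearson 95% interval 1.21 to 2.85) and 0.899% in Tc9 (0.640 to 1.23). These intervals, like all others here, cover counting error only, and not the differences between mice. A rule sum of 1 to 3 was found in 162 and 163 further cells, which belong to neither set. Ifit1 was present in 21 of 23 members in Tc1 with 69 UMIs and in 38 of 39 in Tc9 with 166. Rsad2 had 101 UMIs in 16 cells and 73 in 29, Ifit3 76 in 16 and 71 in 23, and Usp18 52 in 18 and 34 in 19. The median rule sum was 7 in both libraries, with a highest value of 62 in Tc1 and 37 in Tc9. All 4 rule genes were found in 9 and 11 members, 3 of them in 8 and 14, 2 in 5 and 9, and 1 alone in 1 and 5.

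The label was checked against marker lists of other cell types. The gate itself asked for Cd3 and Cd4 UMIs and limited Cd8 and 4 macrophage genes, so the levels of those genes are fixed by it and say nothing about the label. Within that limit each member had between 2 and 54 Cd3 UMIs in Tc1 and between 2 and 33 in Tc9, with a median of 11 in both, and the macrophage list, which holds gate genes, had 5 UMIs in Tc9 members. In Tc9 the members held 0 UMIs of the red cell, natural killer, melanoma, neutrophil and gamma-delta T cell lists, 1 each of the B cell and fibroblast lists and 6 of the dendritic cell list (5 of its 8 genes at 0). The endothelial list had 41 UMIs (162 CPM against 92.9 in sum-0 cells), all from Pecam1, with Cdh5, Kdr and Cldn5 at 0. The plasmacytoid dendritic cell list had 174 UMIs (685 against 91.3 CPM), of which 173 were from Bst2, which the antiviral effector list also holds, 1 from Tcf4 and 0 from Siglech. In Tc1 the picture differed. Of the 23 Tc1 members, 5 carried 206, 217, 568, 789 and 1320 UMIs of the MHC class II genes H2-Aa, H2-Ab1, H2-Eb1 and Cd74, while no other member in either library had more than 4. Of 2 Tc1 members with 896 and 2283 UMIs of haemoglobin genes, the first also was the cell with 568 class II UMIs, and the second had all its 40 rule UMIs from Rsad2. Class II and haemoglobin genes mark antigen-presenting cells and red cells, so these 6 barcodes go against the label, whatever their Cd3 and Cd4 UMIs. The 5 class II barcodes held 49.9% of all UMIs of Tc1 members. Among sum-0 cells, barcodes with 20 or more class II UMIs were 26 of 1022 in Tc1 (2.54%) and 18 of 4137 in Tc9 (0.435%).

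**Figure D1:**
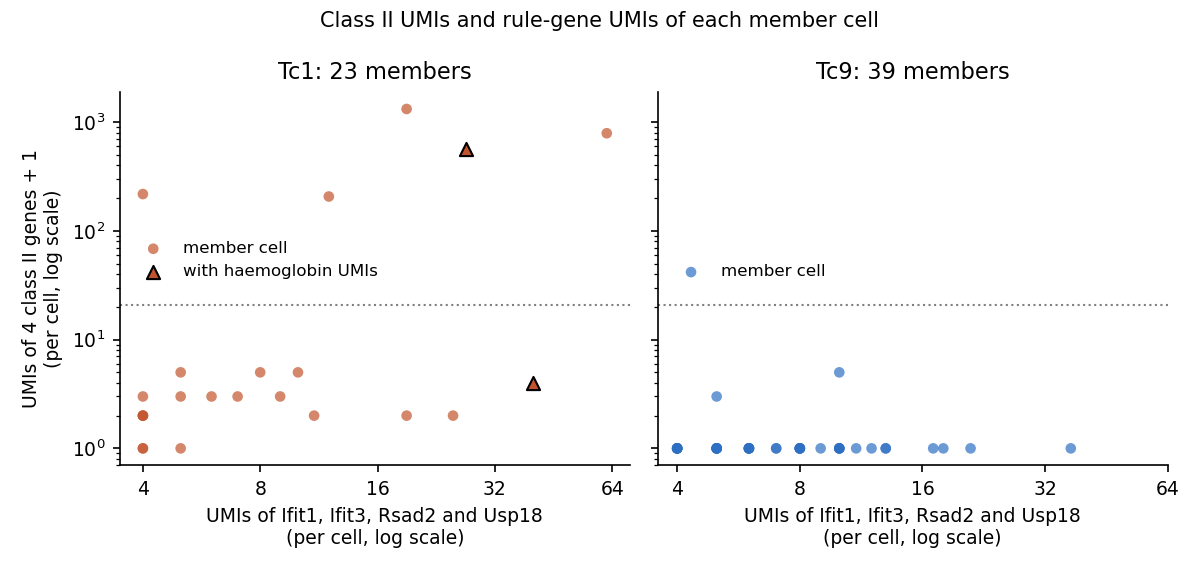
UMIs of 4 class II genes plus 1 (log scale) against UMIs of the 4 rule genes (log scale) for each member cell of Tc1 and Tc9, with triangles for cells with 20 or more haemoglobin UMIs and a dotted line at 20 class II UMIs. In Tc1, 5 of 23 cells lie above the line, and in Tc9, 0 of 39 do.

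Every result below is given for all members and, where its direction or its call at 1.5-fold changes, without the barcodes of either library that had 20 or more class II or haemoglobin UMIs, which left 17 members among 1162 gated cells in Tc1 (1.46%, 0.854 to 2.33) and all 39 among 4317 in Tc9 (0.903%, 0.643 to 1.23). Without them the dendritic cell markers of Tc1 members summed to 402 CPM (counts per 1000000 UMIs of the set) against 451 in sum-0 cells, from 20426 against 1273 with them. The macrophage markers summed to 485 against 488 CPM, from 1787 against 509. Red cell genes still gave 249 CPM against 109, from 8 of the 17 members with up to 7 UMIs each. The dendritic and red cell lists hold the class II and haemoglobin genes that chose the barcodes left out. The lower sums of those lists were thus fixed by the choice. Thy1, a T cell gene outside the gate, was found in a smaller share of Tc9 members than of sum-0 cells. With cells thinned to 2000 UMIs it was in 15 of 39 (38.5%, 23.4 to 55.4) against 63.6%. Unthinned it was in 71.8% (55.1 to 85.0) against 86.9%. In Tc1 it was in 52.4% (29.8 to 74.3) against 56.9% thinned, and in 82.6% against 70.5% unthinned. Without those barcodes the thinned Tc1 shares were 73.3% (44.9 to 92.2) and 56.9%.

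The strongest shared difference between members and sum-0 cells was in antiviral genes. Isg15, the ubiquitin-like protein that Usp18 removes, was found in 23 of 23 members in Tc1 (lowest 1, median 6 and highest 37 UMIs) and in 36 of 39 in Tc9 (0, 4 and 25). Its summed level was 1581 CPM in Tc1 members against 59.2 in sum-0 cells, a log2 ratio of 4.74 (exact conditional 95% interval 4.48 to 5.00), and 930 against 15.5 CPM in Tc9, where the log2 ratio was 5.91 (5.67 to 6.14). Without the class II and haemoglobin barcodes the Tc1 value was 4.91 (4.58 to 5.23). Such intervals take UMIs of 1 cell for independent draws, which makes them too narrow, above all where a few cells give most UMIs. To set depth aside, each cell was thinned to 2000 UMIs, which left out 2 of 23 Tc1 members and 86 of 1022 sum-0 cells, and 0 of 39 Tc9 members and 101 of 4137 sum-0 cells. Isg15 was then found in 18 of 21 members (85.7%, 63.7 to 97.0) against 9.08% of sum-0 cells in Tc1, and in 26 of 39 (66.7%, 49.8 to 80.9) against 2.30% in Tc9. Before thinning the members with Isg15 were all 23 of 23 against 16.6% of sum-0 cells, and 92.3% against 6.43%. Tc1 macrophage barcodes had Isg15 in 32.3% at the same depth, from a median of 7908 UMIs before thinning, so that gene is not particular to T cells in this library.

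A gene was counted as higher or lower at a ratio of at least 1.5-fold among genes with a mean of at least 50 CPM over the 4 sums. In Tc1, 395 of 3087 genes were higher (12.8%) and 553 lower (17.9%), and in Tc9, 261 of 3070 were higher (8.5%) and 389 lower (12.7%). In both libraries 142 of 3070 genes were higher (4.63%) and 86 lower (2.8%). Without the class II and haemoglobin barcodes 532 of 3075 genes were higher in Tc1 (17.3%) and 549 lower (17.9%), and 184 of 3073 were higher (5.99%) and 97 lower (3.16%) in both. Of the 142 genes 128 were also among the 184, but of the 86 lower genes 53 were also among the 97. The median log2 ratio of all genes was -0.08 in Tc1 and -0.10 in Tc9. The interferon lists held 66 of the 142 genes that were higher in both libraries, and 11 of the 15 with the highest mean ratio. Among the 3087 genes, the effector, sensor, signalling and inhibitor lists had 35, 15, 10 and 5 genes. The interferon, interferon-gamma response and class I lists had 1, 15 and 16. The cells were chosen on 4 genes of the same programme, so this overlap only describes them. The shares of all genes given here are to be read beside the counts of every gene list below.

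Those 15 genes were, from the highest, Ifit3b, Oasl2, Ifi204, Isg15, Cxcl10, Ifi214, Ifit2, Ifit1bl1, Slfn5, Cmpk2, A330040F15Rik, Ifi211, Irf7, Oas3 and Ifi205. Slfn5, a Schlafen family member, gave the most UMIs in Tc9 among them, with 259 in 36 of 39 members and 86 in 19 of 23 members of Tc1. Its log2 ratio was 3.53 (3.15 to 3.90) in Tc1, 4.03 without the barcodes set apart, and 4.78 (4.58 to 4.98) in Tc9. Cmpk2, a nucleotide kinase encoded beside Rsad2, had log2 ratios of 4.14 in Tc1 and 4.16 in Tc9, from 21 and 18 UMIs. Ifit3b had 6.87 and 9.63, but it is a near-identical copy of the rule gene Ifit3, so reads of the pair may have been split and its value is uncertain. Several of the 15 rest on few cells. Ifi205 had 30 UMIs in 4 Tc1 members and 1 UMI in Tc9 (log2 ratio 3.21, -2.21 to 6.0), Ifi211 had 23 UMIs in 5 cells and 12 in 9, and both were at 0 in the 17 Tc1 members left without the barcodes set apart. Ifi204, a DNA sensor, had 25 UMIs in 6 Tc1 members, of which 4 UMIs in 1 cell were left.

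Of 41 listed antiviral effector genes 35 were at the minimum. All 35 were higher in Tc1, and 33 were higher and 2 lower in Tc9. The median log2 ratio was 2.20 in Tc1 and 2.95 in Tc9, and the listed genes summed to 18330 CPM in Tc1 members against 4682 in sum-0 cells, and to 16403 against 3255 CPM in Tc9. Without the class II and haemoglobin barcodes 32 of 33 genes were higher in Tc1, with a median of 2.54. The 2 genes lower in Tc9 were Ifitm1 (log2 ratio 3.98 in Tc1 and -1.01 in Tc9) and Ifitm2 (0.79 and -2.47), membrane proteins that hinder viral entry, singled out after their values were seen. Both turned in Tc1 without the barcodes set apart, to -0.67 from 1 UMI for Ifitm1 and to -0.77 from 13 UMIs for Ifitm2. Ifitm1 was above 0 in Tc9 with the member threshold at 2 UMIs (1.04) and with cells thinned before the rule (0.98). Bst2 (tetherin), which holds budding virus at the cell surface, was present in 21 of 23 and 37 of 39 members, with log2 ratios of 2.59 (2.31 to 2.87) and 3.10 (2.87 to 3.33). Ifit2 had 37 UMIs in 8 cells and 28 in 14, with log2 ratios of 4.16 and 4.44, and 3.04 in Tc1 without the barcodes set apart.

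Sensors of foreign nucleic acid were higher too. Of 22 listed genes 15 were at the minimum, and 14 of them were higher in each library, the same 14 in both, with median log2 ratios of 2.78 in Tc1 and 3.54 in Tc9, and 2.72 in Tc1 without the barcodes set apart. The remaining gene was Tmem173 (STING), at -0.25 and -0.91, and at 0.44 in Tc9 with cells thinned before the rule. Oasl2 and Oas3, of the oligoadenylate synthetase family that responds to double-stranded RNA, had log2 ratios of 5.01 and 3.48 in Tc1, and of 7.17 and 4.46 in Tc9. Ifih1 (MDA5), a sensor of long viral RNA, had 27 UMIs in 13 Tc1 members and 61 in 22 Tc9 members, with log2 ratios of 2.91 (2.24 to 3.54) and 4.10 (3.68 to 4.49).

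The signalling genes differed among themselves. The receptor chains had small but imprecise log2 ratios. In Tc1 they were 0.16 (-0.86 to 1.02) for Ifnar1 and 0.58 (-0.09 to 1.19) for Ifnar2, the latter near the 1.5-fold limit. In Tc9 they were 0.23 (-0.46 to 0.85) and 0.39 (-0.25 to 0.97). In Tc1 without the barcodes set apart Ifnar1 was at -0.24 and Ifnar2 at -0.23. All 4 intervals with all members include 0, but each also leaves room for a 1.5-fold higher level, and the widest for a 1.5-fold lower one. Stat2 was at 2.37 (1.62 to 3.04) in Tc1 and 3.09 (2.56 to 3.57) in Tc9. Irf9, the DNA-binding partner of Stat2, was at 0.11 (-1.12 to 1.11) from 8 UMIs in Tc1, at 0.98 (-0.35 to 2.05) from 7 UMIs there without the barcodes set apart, and at 1.86 (1.29 to 2.39) from 30 UMIs in Tc9. Irf7, a transcription factor that amplifies the type I response, was the highest of the list with 88 UMIs in 18 Tc1 members and 66 in 28 Tc9 members and log2 ratios of 3.74 (3.35 to 4.11) and 4.22 (3.82 to 4.60). Of the 10 listed genes at the minimum, 3 were higher in Tc1 and 5 in Tc9, among them Stat2 and Irf7 in both, with medians of 0.13 and 0.73, and 4 were higher in Tc1 without the barcodes set apart.

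Of the inhibitors beside Usp18, Socs1 was at 0.65 (0.04 to 1.21) in Tc1 and 1.35 (0.91 to 1.77) in Tc9, but Socs1 was at -0.40 in Tc1 with the member threshold at 2 UMIs, while Socs3 was at -0.32 and -0.37 with intervals that include 0, and at -1.60 from 2 UMIs in Tc1 without the barcodes set apart. The interferon genes themselves were scarcely detected. Of 12 listed interferon genes 11 had 0 UMIs in the members of both libraries, and Ifng alone was measured. It had 6 UMIs in 5 Tc1 members, a log2 ratio of -1.27 (-2.72 to -0.13), and 32 UMIs in 14 Tc9 members, a ratio of 0.89 (0.34 to 1.39). At 2000 UMIs per cell Ifng was found in 2 of 21 members against 11.2% of sum-0 cells in Tc1, and in 6 of 39 (15.4%, 5.86 to 30.5) against 10.1% in Tc9, and both intervals of the members contain the share of the sum-0 cells. Unthinned, the shares were 21.7% against 17.8% and 35.9% against 19.2%.

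Genes known to respond to interferon-gamma were also higher. Of 26 listed genes 15 were at the minimum, of which 12 were higher in each library and 11 in both, with median log2 ratios of 1.77 and 2.29, and none was lower. Without the barcodes set apart 15 of 17 were higher in Tc1, with a median of 2.25. Gbp9 and Gbp6, guanylate-binding proteins, were at 2.70 and 2.11 in Tc1 and at 3.14 and 2.78 in Tc9, and Iigp1, a GTPase active against intracellular microbes, was at 1.93 and 2.98. Cxcl10, the chemokine that attracts Cxcr3+ T cells, had 49 UMIs in 6 Tc1 members (log2 ratio 6.12, 5.35 to 6.95) and 21 UMIs in 9 Tc9 members (2.94, 2.23 to 3.58), and 18 UMIs in 3 cells in Tc1 without the barcodes set apart. Class I antigen presentation genes had smaller ratios. Of 16 listed genes, all at the minimum, 4 were higher in Tc1 and 10 in Tc9, with medians of 0.33 and 0.78. The 4 higher in both were H2-T22 (1.30 and 1.37) and H2-T23 (0.84 and 1.06), class I molecules of the non-classical kind, the peptide loading protein Tapbp (1.11 and 1.45) and the immunoproteasome subunit Psmb10 (0.95 and 1.09). The classical chains H2-K1 (0.18 and 0.18) and H2-D1 (0.12 and 0.20) stayed under the 1.5-fold limit. Without the barcodes set apart 8 of the 16 were higher in Tc1, with a median of 0.57, and H2-K1 at 0.68 was among them. With the member threshold at 2 UMIs H2-T23 was at -0.052 in Tc1.

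**Figure D2:**
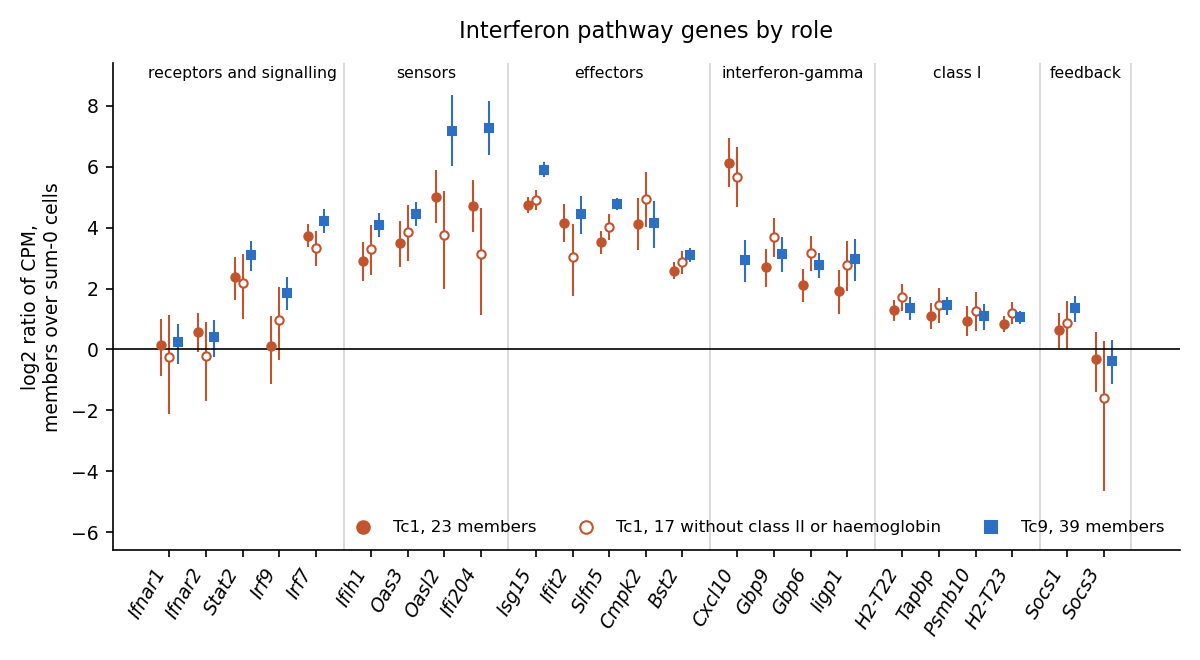
Log2 ratio of CPM, members over sum-0 cells, for named interferon pathway genes by role, in Tc1 (filled circles), Tc1 without class II or haemoglobin barcodes (open circles) and Tc9 (squares), with exact conditional 95% intervals as bars. The effectors and sensors drawn lie well above 0 in all 3 sets, while Ifnar1, Ifnar2 and Socs3 have intervals that include 0, as has Irf9 in both Tc1 sets. Ifitm1, Ifitm2 and Tmem173 of the same lists, which were below 0 in Tc9, are not drawn.

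To describe the programme cell by cell, the share of UMIs from 61 antiviral effector and sensor genes outside the rule was taken at 2000 UMIs per cell. In Tc1 members it was 0.45% at the lowest, 2.15% at the median and 5.80% at the highest (n = 21), and in sum-0 cells 0%, 0.45% and 2.85% (n = 936). Without the barcodes set apart the Tc1 members ran from 1.5% through 2.45% to 5.80% (n = 15). In Tc9 members it was 0.70%, 2.30% and 4.45% (n = 39), and in sum-0 cells 0%, 0.35% and 2.25% (n = 4036). The groups overlapped, but 5 of 936 sum-0 cells in Tc1 (0.534%) and 0 of 4036 in Tc9 reached the median of the members. Cells with a sum of 1 to 3 lay between, with medians of 0.75% (n = 150, 12 left out) in Tc1 and 0.60% (n = 159, 4 left out) in Tc9. Unthinned, the members' medians were 2.42% and 2.19%.

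**Figure D3:**
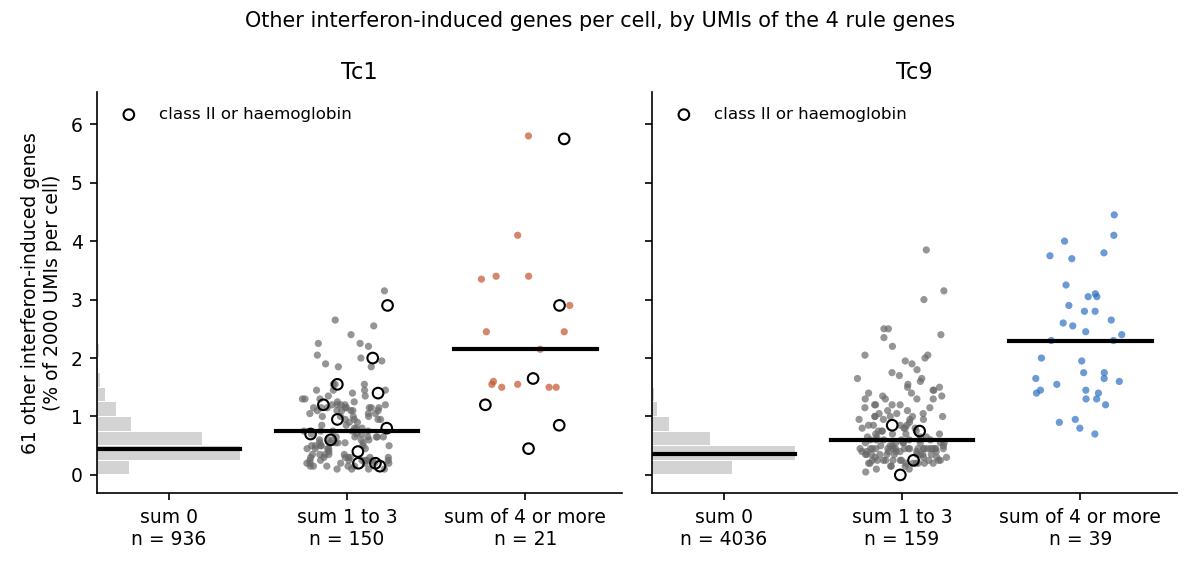
Percent of UMIs from 61 antiviral effector and sensor genes outside the rule in each cell, thinned to 2000 UMIs, for sum-0 cells (grey histogram), cells with a sum of 1 to 3 (grey points) and members (coloured points) in Tc1 and Tc9, with open circles for class II or haemoglobin barcodes of the last 2 groups and medians as black lines. The members' medians of 2.15% and 2.30% are reached by 5 of 936 and 0 of 4036 sum-0 cells.

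Within the members, the share of UMIs from the 4 rule genes and that from the 61 others rose together in part, with a Spearman rho of 0.50 in Tc1 (n = 23), 0.61 without the barcodes set apart (n = 17) and 0.50 in Tc9 (n = 39), and a Pearson r of 0.37, 0.74 and 0.33. Both shares come from the same library and have the same total as denominator, so these values only describe the cells.

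The level of other interferon genes was then read across the rule sum. In Tc9, Isg15 was at 15.5, 92.4, 360, 641 and 1230 CPM in cells with a sum of 0, 1, 2 to 3, 4 to 7 and 8 or more (4137, 123, 40, 20 and 19 cells), and in Tc1 at 59.2, 197, 484, 1205 and 1795 CPM (1022, 124, 38, 12 and 11 cells). Both libraries thus had a higher level at each step. Slfn5 went from 37.1 over 118, 360 and 850 to 1198 CPM in Tc9. In Tc1 Slfn5 was at 48.1, 77.9 and 86.4 CPM up to a sum of 3 and at 709 and 467 CPM above. Without the barcodes set apart the last 2 Tc1 classes were at 768 and 863 CPM, so the fall at the top turned to a rise. In that setting Slfn5 in Tc1 was lower at a sum of 2 to 3 than at a sum of 1. Irf7 in Tc9 had 13.9, 50.5, 107, 201 and 321 CPM. In Tc1 Irf7 was at 42.6, 95.3 and 72.8 CPM up to a sum of 3, at 425 CPM for 4 to 7 and at 649 CPM for 8 or more, where 4 of 11 barcodes were of the class II kind, or at 483 and 375 CPM in the last 2 classes without the barcodes set apart.

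Cells just inside and just outside the threshold were compared as well, with no test. In Tc9 the 15 cells with a sum of 3 had Isg15 at 468 CPM and 1.56% of UMIs from the 61 genes, and the 6 cells with a sum of 4 had 294 CPM and 1.53%. In Tc1 the 12 cells with a sum of 3 had 931 CPM and 1.01%, and the 7 with a sum of 4 had 1071 CPM and 1.82%, or 199 CPM and 0.569% (9 cells) and 1359 CPM and 2.10% (6 cells) without the barcodes set apart. These values sum the UMIs of few cells. Cell by cell at 2000 UMIs, the share from the 61 genes ran from 0.15% to 2.65% (median 1.5%, n = 8) at a sum of 3 and from 1.5% to 3.4% (median 1.60%, n = 5) at a sum of 4 in Tc1 without the barcodes set apart, and from 0.20% to 3.0% (median 1.45%, n = 15) and 0.80% to 2.60% (median 1.57%, n = 6) in Tc9. The cells on either side of the threshold thus overlapped in both libraries.

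**Figure D4:**
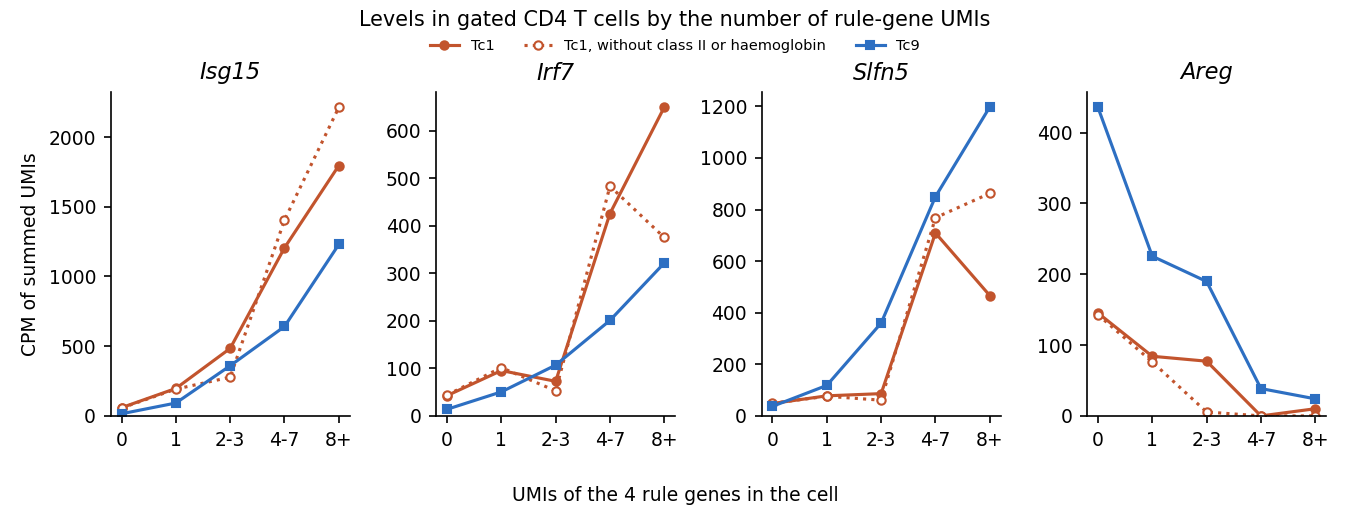
Summed CPM of Isg15, Irf7, Slfn5 and Areg in gated CD4 T cells by their number of rule-gene UMIs (0, 1, 2 to 3, 4 to 7, 8 or more) in Tc1 (filled circles), Tc1 without class II or haemoglobin barcodes (open circles, dotted) and Tc9 (squares). In Tc9 Isg15 goes from 15.5 to 1230 CPM and Areg from 436 to 24.1 CPM.

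Areg, amphiregulin, an epidermal growth factor family ligand made by tissue-repair type T cells, had the lowest mean ratio of all genes that were lower in both libraries. It had 1 UMI in 23 Tc1 members (6.45 CPM against 145 in sum-0 cells) and 8 UMIs in 5 of 39 Tc9 members (31.5 against 436 CPM), log2 ratios of -4.49 (-9.80 to -2.01) and -3.79 (-5.00 to -2.81). The 17 Tc1 members left without the barcodes set apart had 0 UMIs, a log2 ratio of at most -1.78. In Tc9 its summed level was 436, 226, 190, 38.6 and 24.1 CPM over the 5 classes of the rule sum. The share of cells with an Areg UMI was not lower at each step. It was 1077 of 4137, 32 of 123, 16 of 40, 4 of 20 and 1 of 19 cells, highest at a sum of 2 to 3. At a sum of 3 alone Areg was at 359 CPM, in 7 of 15 cells, and at a sum of 4 at 24.5 CPM, in 1 of 6. At 2000 UMIs per cell 1 of 39 Tc9 members had Areg (2.56%, 0.0649 to 13.5) against 19.2% of sum-0 cells (18.0 to 20.5). In Tc1 0 of 21 members had it, which allows a share of up to 16.1%, against 6.30%. Unthinned, the shares were 12.8% against 26% and 4.35% against 8.32%.

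Among the other type 2 and tissue-repair genes, the summed level of Il1rl1 was lower in both libraries and that of Gata3 in Tc1. The type 2 cytokines differed between the libraries. Il1rl1, the receptor of interleukin 33, was at -1.19 (-2.52 to -0.14) in Tc1 and -1.40 (-2.04 to -0.83) in Tc9, and at -0.33 (-1.79 to 0.80) in Tc1 without the barcodes set apart. It was found in 5 of 39 Tc9 members (12.8%, 4.30 to 27.4) against 27.8% of sum-0 cells at 2000 UMIs, and in 28.2% against 43.3% unthinned. In Tc1 the direction of the Il1rl1 share depended on depth. It was 1 of 21 members (4.76%, 0.120 to 23.8) against 14.0% at 2000 UMIs, but 26.1% against 21.5% unthinned. Gata3, the master regulator of type 2 helper cells, was lower in Tc1 (-0.87, -1.71 to -0.14) and under the 1.5-fold limit in Tc9 (-0.52, -0.90 to -0.17), where 13 of 39 members (33.3%, 19.1 to 50.2) and 43.7% of sum-0 cells had it at 2000 UMIs, and 64.1% and 69.5% unthinned. Of 8 listed type 2 genes 3 were at the minimum, of which 3 were lower in Tc1 and 2 in Tc9. Without the barcodes set apart 4 were, with 1 higher and 2 lower in Tc1 and 3 lower in Tc9. Cytokine UMIs of Il4, Il5 or Il13 were found in 0 of 39 Tc9 members, which allows up to 9.03%, against 9.27% of sum-0 cells at 2000 UMIs. Unthinned they were found in 1 of 39 against 17%. In Tc1 3 of 21 members had them (14.3%, 3.05 to 36.3) against 7.80%, and unthinned 26.1% against 10.9%.

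Regulatory T cell genes gave no uniform picture. Foxp3, which defines regulatory T cells, had 10 UMIs in 4 Tc1 members and 29 in 5 Tc9 members, with log2 ratios of -0.43 (-1.50 to 0.47) and 0.42 (-0.16 to 0.94), and 0.49 in Tc1 without the barcodes set apart. At 2000 UMIs it was found in 4 of 39 Tc9 members (10.3%, 2.87 to 24.2) against 9.37% of sum-0 cells, and in 1 of 21 Tc1 members (4.76%, 0.120 to 23.8) against 6.73%, where the intervals of the members contain the sum-0 shares, and unthinned in 12.8% against 14% and in 17.4% against 10.6%. Tc1 macrophage barcodes had Foxp3 in 0.0751% at that depth. Of 10 listed regulatory genes 7 were at the minimum, with 5 lower in Tc1, 3 in Tc9 and 2 in both, and none higher, but without the barcodes set apart 2 of 8 were higher and 4 lower in Tc1. The 2 lower in both were Tnfrsf4 (OX40), at -1.5 and -1.34, and Il2ra, the interleukin 2 receptor alpha chain, at -0.71 and -1.24. Il2ra UMIs in Tc9 came from 4 cells, and the ratio was 0.67 in the 10 Tc9 members with a paired receptor and 0.86 in the 7 found when cells were thinned before the rule. Ctla4 (-1.69 in Tc1 and -0.44 in Tc9) and Ikzf2 (-2.04 and -0.34), both high in regulatory cells, were lower in Tc1 alone.

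Naive and central memory genes were not higher in either library. Of 7 listed genes at the minimum 0 were higher, and 1 was lower in Tc9, with 2 lower in Tc1 without the barcodes set apart. Among all genes counted 12.8% were higher and 17.9% lower in Tc1, and 8.5% and 12.7% in Tc9. With 7 genes such counts do not set the list apart from all genes. Ccr7, the lymph node homing receptor, had 3 UMIs in 1 Tc1 member and 0 in Tc9. At 2000 UMIs it was found in 0 of 21 Tc1 members, which allows up to 16.1%, against 10.8% of sum-0 cells. In Tc9 it was found in 0 of 39 members, which allows up to 9.03%, against 2.11%. A lower share was thus not detectable with these numbers of cells. Unthinned, the sum-0 shares were 16.5% and 5.12%. Tcf7 (TCF-1), which maintains naive and memory cells, was at -0.56 (-1.19 to 0.01) and -0.14 (-0.56 to 0.26). Cd4, used by the gate at 1 UMI, was at -0.59 and 0.10, and at -0.17 in Tc1 without the barcodes set apart.

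Type 1 helper genes were mixed, with 1 of 8 higher and 2 lower in Tc1, and 3 higher and 1 lower in Tc9, with medians of -0.32 and 0.06. Of all genes counted, 12.8% were higher and 17.9% lower in Tc1, so the Tc1 counts are near those shares. In Tc9 8.5% of all genes were higher and 12.7% lower. Without the barcodes set apart 3 of 8 were higher and 2 lower in Tc1 and 4 higher and 0 lower in Tc9, with medians of 0.45 and 0.43, and 2 were higher in both. Ccl5, a chemokine of effector T cells, had 232 UMIs in 16 Tc1 members and 292 in 16 Tc9 members, with log2 ratios of 0.09 (-0.10 to 0.28) and 1.14 (0.97 to 1.31), and 1.03 (0.82 to 1.23) in Tc1 without the barcodes set apart. Its share of cells at 2000 UMIs was at 47.6% (25.7 to 70.2) against 43.7% in Tc1 and 25.6% (13 to 42.1) against 22.2% in Tc9, and unthinned it was 69.6% against 51.6% and 41% against 28.9%. At equal depth the members' intervals of the share contain the sum-0 share in both libraries, also where the level was higher. In the 7 Tc9 members found when cells were thinned before the rule, the ratio was -1.97. Inhibitory receptor and exhaustion genes at the minimum were lower in Tc1 (3 of 3, Tox at -1.62, Ctla4 at -1.69 and Tigit at -1.19) and under the limit in Tc9 (-0.13, -0.44 and -0.37), while without the barcodes set apart 3 of 4 were lower in Tc1 and 1 in Tc9.

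Genes of the G2 and M phases of the cell cycle were scarce. Mki67 and Top2a, which mark dividing cells, were the 2 listed G2 and M phase genes at the minimum and were lower in both libraries, with 4 and 5 UMIs in Tc1 members (-2.15 and -1.67) and 1 and 3 UMIs in Tc9 members (-3.88 and -2.30). Either gene was found at 2000 UMIs in 3 of 21 Tc1 members (14.3%, 3.05 to 36.3) against 12.4% of sum-0 cells and in 1 of 39 Tc9 members (2.56%, 0.0649 to 13.5) against 9.29%. Unthinned, the shares were 21.7% against 20% and 7.69% against 21.2%. In Tc1 the share was thus no lower, although the level was. Without the barcodes set apart 1 of the 10 listed G2 and M phase genes was at the minimum, and it was lower in both libraries. S phase genes did not show the same. Of 11 listed 2 were at the minimum, with 1 lower in Tc1, 0 lower in Tc9 and medians of -0.73 and 0.07. Without the barcodes set apart 1 was higher and 1 lower in Tc1. The remaining genes of the 10 lowest were Lmna (-1.43 and -2.40), a nuclear lamin, Dut (-2.08 and -1.34), an enzyme of thymidine nucleotide supply, Itgav (-2.32 and -0.80), an integrin chain, Hist1h1c (-2.48 and -0.62), a linker histone, Tob2 (-2.11 and -1.06), Gmds (-1.66 and -1.35) and Sit1 (-0.78 and -2.23). Each of these had 8 or fewer UMIs in Tc1 members, and Lmna, Dut, Tob2, Hist1h1c and Gmds were above 0 in Tc9 when cells were thinned before the rule (0.68, 0.29, 0.027, 0.71 and 0.51, 7 members), as was Mki67 in Tc1 (0.17, 9 members).

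**Figure D5:**
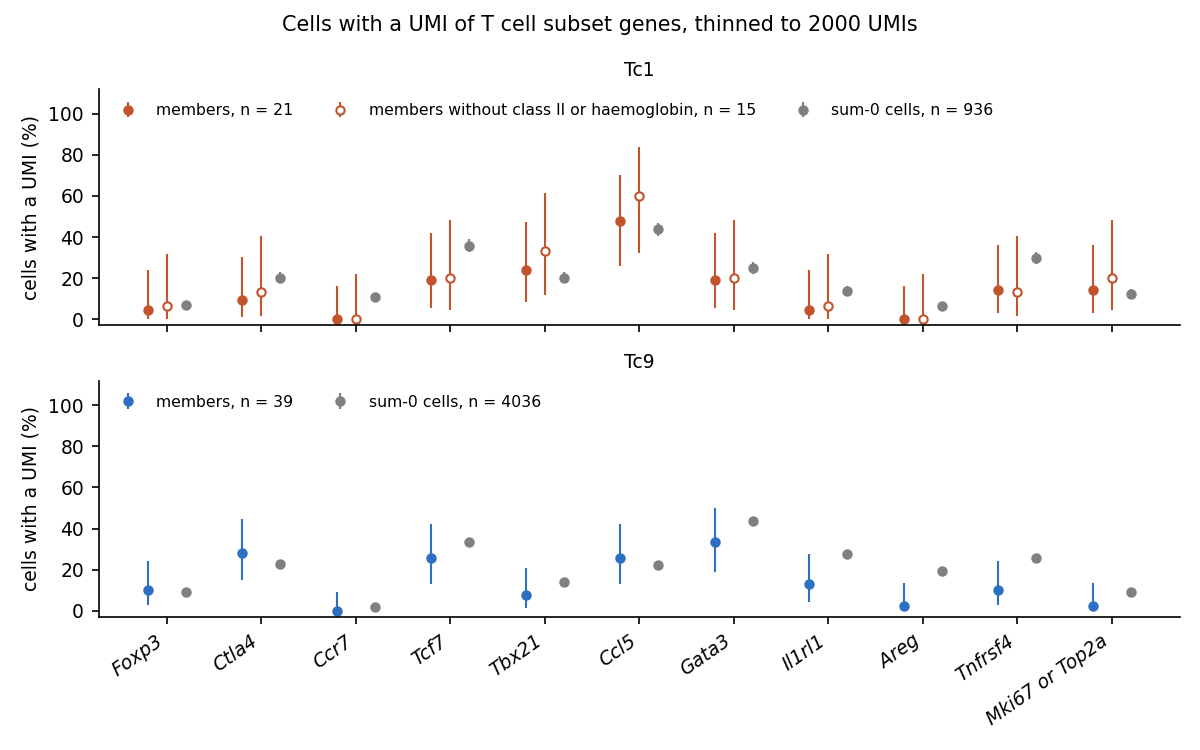
Percent of cells with a UMI of T cell subset genes, each cell thinned to 2000 UMIs, in members (coloured), Tc1 members without class II or haemoglobin barcodes (open) and sum-0 cells (grey), with exact 95% intervals as bars. For most genes the members' intervals contain the sum-0 share; in Tc9 Areg is at 2.56% in members and at 19.2% in sum-0 cells.

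Of the other lists, genes of cell survival and death had 4 of 7 higher in Tc1 and 3 of 7 in Tc9, the 3 shared genes being Casp1 (1.5 and 1.04), a caspase of inflammatory cell death, Casp8 (0.99 and 1.40), the initiator of death receptor signalling, and Tnfsf10 (1.03 and 1.04), the death ligand TRAIL, all 3 also known as interferon-induced. Bcl2, which protects lymphocytes, was at -1.15 and -0.53. Glycolysis genes had 1 of 12 higher in Tc1 and 3 of 12 lower in Tc9, with medians of 0.06 and -0.19, and 5 lower in Tc1 with a median of -0.51 without the barcodes set apart. Genes induced by tissue dissociation had 2 of 11 higher and 4 lower in Tc1, and 3 lower in Tc9, with medians of -0.36 and -0.20, and 2 lower in Tc1 without the barcodes set apart. Activation and costimulation genes had 1 of 10 higher in each library and 3 lower in Tc9, but without the barcodes set apart 4 of 11 were higher and 1 lower in Tc1, and 1 higher and 4 lower in Tc9. The shares of all genes counted were 12.8% higher and 17.9% lower in Tc1, and 8.5% and 12.7% in Tc9. With so few genes per list, counts that differ from these shares by a few genes do not set a list apart.

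The members of Tc9 were set against those of Tc1 with the same ratio in sum-0 cells beside it. That second ratio shows how far the libraries differ in cells without a UMI of the 4 rule genes. Sum-0 cells are not free of other interferon transcripts. Thinned to 2000 UMIs, 9.08% of the Tc1 ones still held Isg15, and 2.30% of the Tc9 ones did. Their ratio is thus no baseline without the programme. Of 3087 genes 742 were higher in Tc9 members (24.0%) and 739 lower (23.9%), and without the barcodes set apart 619 of 3073 were higher (20.1%) and 846 lower (27.5%). The antiviral effectors had a median log2 ratio of -0.13 in members and -0.65 in sum-0 cells, or -0.47 and -0.66 without the barcodes set apart. The sensors had 0.27 and -0.62, or 0.03 and -0.52. Isg15 was lower in Tc9 members (-0.77, -1.03 to -0.50) and lower still in Tc9 sum-0 cells (-1.93), and Irf7 was at -1.13 and -1.61. Slfn5 was higher in Tc9 members (0.88, 0.52 to 1.25) with -0.37 in sum-0 cells, but at 0.35 without the barcodes set apart.

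The 8 genes lowest in Tc9 against Tc1 members were Hbb-bs, H2-Aa, Cd74, H2-Ab1, H2-Eb1, Hbb-bt, Tyrobp and Hba-a1, with log2 ratios from -6.40 to -10.36, which are genes of the 6 barcodes set apart. Without those, the 8 lowest included Ccr8 (-4.81, with -0.54 in sum-0 cells), a chemokine receptor, Gzmb (-4.65, with -1.02), the protease of cytotoxic granules, and Il4 (at most -3.55, from 10 UMIs against 0, with 0.99). Gzmb had 43 UMIs in 5 of the 17 Tc1 members and 6 UMIs in 2 Tc9 members. The 8 highest with all barcodes were Ehbp1, Trat1, Il31ra, Gprin3, Fam129a, Adamts6, Peak1 and Ube2g1, between 2.81 and 3.33. Peak1 had 26 UMIs in 16 Tc1 members and 302 in 35 Tc9 members (2.83, 2.25 to 3.46), and its ratio in sum-0 cells was 1.92. Il31ra, an interleukin 31 receptor chain, had 7 and 100 UMIs (3.12, 2.03 to 4.48) with 2.40 in sum-0 cells. Gata3 was higher in Tc9 members (1.38, 0.55 to 2.30) and in Tc9 sum-0 cells (1.04).

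The T cell receptor was a readout that the rule did not use. A productive TRB chain was joined by barcode for 16 of 23 Tc1 members (69.6%, 47.1 to 86.8) against 62.6% of sum-0 cells, and for 21 of 39 Tc9 members (53.8%, 37.2 to 69.9) against 55.0%. Exactly 1 TRA and 1 TRB chain was found for 8 (34.8%) and 10 (25.6%) members against 38.2% and 25.8% of sum-0 cells. At least 2 TRB chains were found in 2 Tc1 members (8.70%, 1.07 to 28.0) against 2.05% and in 1 Tc9 member (2.56%, 0.0649 to 13.5) against 3.53%. All these intervals of the members contain the sum-0 share.

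The members' TRB chains were read beside those of sum-0 cells. Among 18 TRB chain records of Tc1 members 16 were distinct, and among 22 of Tc9 members 20 were, so that 2 chains in each library occurred in more than 1 member. In sum-0 cells 391 of 661 records in Tc1 (59.2%) and 723 of 2423 in Tc9 (29.8%) were distinct. Few records hold few repeats, so the shares of members and sum-0 cells cannot be compared. Of the 16 distinct TRB chains in Tc1 8 were also found in sum-0 cells, and of the 20 in Tc9 15 were. These were all of the members' chains that occurred in more than 1 barcode of their library. Sum-0 cells made up 84.7% of the gated cells in Tc1 and 95.3% in Tc9, so such sharing was close to fixed in advance. The largest TRB in Tc1, TRBV3 with TRBJ1-1, had 109 barcodes, of which 51 were in the gate, 46 had a sum of 0 and 1 was a member. The largest in Tc9, TRBV3 with TRBJ1-2, had 166 barcodes, of which 102 were in the gate, 98 had a sum of 0 and 2 were members. Clonotypes of both chains with at least 3 barcodes held 2 of 8 Tc1 members (25%, 3.19 to 65.1) against 42.3% of sum-0 cells, and 6 of 10 Tc9 members (interval 26.2 to 87.8%) against 62.9%. Without the barcodes set apart they held 1 of 6 Tc1 members (16.7%, 0.421 to 64.1). By the TRB chain alone the direction turned in Tc1, with 10 of 16 members (62.5%, 35.4 to 84.8) in chains of at least 3 barcodes against 52.8% of sum-0 cells, and in Tc9 it was 15 of 21 (71.4%, 47.8 to 88.7) against 76.7%. With so few members a difference from the sum-0 cells was not detectable by either measure.

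The CDR3 sequences of the 3 largest paired clonotypes per library that hold a member are printed because they tie members to sum-0 cells of the same clone. They are given as deposited, TRA before TRB, 5′ to 3′, in lower case throughout since no base is singled out.
Tc1 clonotype 1, TRA, TRAV6N-7 with TRAJ22: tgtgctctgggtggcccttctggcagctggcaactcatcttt
Tc1 clonotype 1, TRB, TRBV15 with TRBJ2-2, 19 barcodes, 10 in the gate, 1 member and 8 sum-0 cells: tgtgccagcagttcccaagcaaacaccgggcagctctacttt
Tc1 clonotype 2, TRA, TRAV13-1 with TRAJ42: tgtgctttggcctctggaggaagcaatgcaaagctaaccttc
Tc1 clonotype 2, TRB, TRBV31 with TRBJ1-4, 9 barcodes, 3 in the gate, 1 member and 2 sum-0 cells: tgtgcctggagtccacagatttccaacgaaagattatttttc
Tc1 clonotype 3, TRA, TRAV21-DV12 with TRAJ45: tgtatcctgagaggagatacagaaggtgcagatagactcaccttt
Tc1 clonotype 3, TRB, TRBV19 with TRBJ1-4, 2 barcodes, 1 in the gate, 1 member and 0 sum-0 cells: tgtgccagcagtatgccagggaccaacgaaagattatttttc
Tc9 clonotype 1, TRA, TRAV5-1 with TRAJ27: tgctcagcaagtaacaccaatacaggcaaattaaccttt
Tc9 clonotype 1, TRB, TRBV14 with TRBJ2-5, 15 barcodes, 11 in the gate, 1 member and 10 sum-0 cells: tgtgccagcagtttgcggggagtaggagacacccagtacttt
Tc9 clonotype 2, TRA, TRAV4-4-DV10 with TRAJ37: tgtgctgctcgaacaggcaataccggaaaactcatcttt
Tc9 clonotype 2, TRB, TRBV12-2 or TRBV13-2 with TRBJ1-4, 14 barcodes, 7 in the gate, 1 member and 6 sum-0 cells: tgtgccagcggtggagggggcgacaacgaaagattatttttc
Tc9 clonotype 3, TRA, TRAV6D-6 with TRAJ43: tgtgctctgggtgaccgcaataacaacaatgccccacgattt
Tc9 clonotype 3, TRB, TRBV12-2 with TRBJ2-5, 12 barcodes, 6 in the gate, 1 member and 5 sum-0 cells: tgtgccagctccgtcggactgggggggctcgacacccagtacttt
In 5 of the 6, the member shared its clonotype with sum-0 cells, between 2 and 10 of them. The third Tc1 clonotype had 2 barcodes, of which 1 passed the gate. Of the 2 Tc1 clonotypes that did so, 1 had as its member a barcode set apart for class II or haemoglobin UMIs, which goes against the label. By the other Tc1 clonotype and those of Tc9, cells of 1 clone were found both among the members and among the sum-0 cells in each library.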

How the data were processed

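Single-cell RNA counts (UMIs per gene and barcode) and T cell receptor contigs from 4 libraries, 1 of each kind per group, are used as deposited by the authors. They were made with the 10x 5′ version 2 chemistry per the labels' protocols and with Cell Ranger 7.0.0 on mm10 (GRCm38) per the submitters' processing notes. The matrices hold 32285 genes, and the contig tables give V and J genes and CDR3 sequences per barcode.

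Barcodes with under 500 genes or over 10% mitochondrial UMIs were left out. Counts were summed over members and over sum-0 cells of each library and divided by the total (CPM). Ratios have exact conditional 95% intervals, shares have Clopper-Pearson intervals, and a gene at 0 was bounded by 3 counts. Both cover counting error only. With 1 library per group nothing was tested. The 4 rule genes and the other gate genes, 14 in all, and 639 receptor and immunoglobulin segment genes were left out of gene counts. Shares were taken after thinning each cell to 2000 UMIs with seed 1. No doublet caller was run; barcodes with 2 or more TRB chains were left out in an alternative. A clonotype is identical V, J and nucleotide CDR3 of both chains, with exactly 1 of each.

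The genes named were 15 fixed ones, of which 14 are reported (Isg15, Ifit2, Irf7, Stat2, Irf9, Ifnar1, Ifnar2, Socs1, Ifng, Foxp3, Ccr7, Tcf7, Gata3 and Cd4), the 15 highest and 10 lowest by mean log2 ratio among genes at least 1.5-fold different in the same direction in both libraries, up to 4 per list, and the 8 highest and 8 lowest between the members of the libraries. Others were singled out after their values were seen. Some genes that this rule names are not reported here, but stayed in all totals and counts of genes. The members and lists were chosen with earlier results of these data known. Barcodes with at least 20 class II or haemoglobin UMIs were left out in an alternative added after seeing the data. The calculation of ratios and intervals was checked on simulated sums, drawn independently per gene from the sum-0 means. That simulation had no spread between cells, so it cannot show that the intervals hold in these data. Python 3.11.15, numpy 2.4.6, scipy 1.17.1, pandas 2.3.3 and matplotlib 3.10.9 were used.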

Additional observations from a re-analysis of the deposited data

Results flagged for a closer look

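For 12 of the genes reported here the log2 ratio of members to sum-0 cells passed 1.5-fold in opposite directions in Tc1 and Tc9. Over all genes counted, 12.8% were higher and 17.9% lower in Tc1, and 8.5% were higher and 12.7% lower in Tc9. The share of all genes with opposite directions is not given here, so 12 cannot be called many or few. With 1 library per group, none of these differences was tested. Ifng was at -1.27 in Tc1 and 0.89 in Tc9, from 6 and 32 UMIs. Gzmb was at 0.88 and -1.69, with 48 UMIs in 6 Tc1 members and 6 UMIs in 2 Tc9 members, and Il4 was at 1.75 and at most -1.89, from 11 and 0 UMIs. The adhesion molecule Pecam1 was at -1.67 and 0.80, and Adamts6 at -1.56 and 0.77. The antiviral effectors Ifitm1, at 3.98 and -1.01, and Ifitm2, at 0.79 and -2.47, were singled out after their values were seen.

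The other 5 are genes of antigen-presenting and myeloid cells: H2-Aa at 4.33 in Tc1 and -2.64 in Tc9, H2-Ab1 at 4.23 and -1.60, H2-Eb1 at 4.31 and at most -0.65, Cd74 at 3.69 and -2.99, and Tyrobp at 2.81 and -1.92. Without the barcodes that had 20 or more class II or haemoglobin UMIs, the Tc1 values of these 5 genes lay between -0.12 and -0.47. Those barcodes were chosen by H2-Aa, H2-Ab1, H2-Eb1, Cd74 and haemoglobin UMIs, so the fall of these class II genes was fixed by the choice. H2-Ab1 also took the opposite sign in Tc9 in that setting. Ifng (-1.24), Gzmb (1.93), Il4 (2.64) and Pecam1 (-2.92) were on the same side as before in Tc1, and Adamts6 was at -0.39, under the 1.5-fold limit, while Ifitm1 (-0.67) and Ifitm2 (-0.77) turned to the side of Tc9.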

How the results depend on the processing

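No paired analysis was possible because each group has 1 RNA library, and no replicate could be left out. The share of members, the counts of genes past 1.5-fold and the medians of the antiviral effector and sensor lists were close to the reported ones with at least 1000 genes per barcode, at most 5% mitochondrial UMIs, without barcodes with 2 or more TRB chains, without TRB chains found in both libraries, with sum-0 cells weighted to the members' depth, with equal weight per cell, and without the class II and haemoglobin barcodes. Counts stayed within 1.5 times of the reported ones there. In the other settings the values below differed more, and the cause was not tested beyond what each setting does to the number of cells or genes.

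With a rule sum of at least 2 UMIs (61 members in Tc1 and 79 in Tc9) the share of members was 5.05% in Tc1 and 1.82% in Tc9, 64 genes were higher in both libraries, 975 were lower in Tc1, 159 in Tc9 and 50 in both, 1210 were higher in Tc9 than in Tc1 members, and the Tc1 medians were 0.95 for effectors and 1.12 for sensors. With at least 8 UMIs (11 and 19 members) the shares were 0.911% and 0.438%, and 630 genes were lower in Tc9 and 173 in both. With cells thinned before the rule (9 and 7 members) the shares were 1.09% and 0.300%, 845 genes were higher in Tc1, 1124 in Tc9 and 372 in both, 407 were higher and 346 lower in Tc9 than in Tc1 members, and the Tc9 medians were 3.54 for effectors and 4.31 for sensors. With no macrophage UMI allowed (6 and 38 members) the Tc1 share was 1.05%, 1038 genes were higher in Tc1 and the effector median was 2.99. With a paired receptor required (8 and 10 members) 668 genes were higher in Tc1, 783 in Tc9 and 262 in both, and 848 were lower in Tc1 and 159 in both. Scaling by the median ratio gave 52 genes lower in both.

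With a minimum of 20 CPM, 884 genes were higher in Tc1, 567 in Tc9 and 238 in both, 1372, 1074 and 315 were lower, and 1414 were higher and 1647 lower in Tc9 than in Tc1 members. With no minimum the counts were 2256, 1936 and 451 higher, 2230, 2036 and 579 lower, and 1705 and 1831 between members. At 2-fold 209 genes were higher in Tc1 and 153 in Tc9, 199, 110 and 12 were lower in Tc1, Tc9 and both, and 340 were higher and 382 lower in Tc9 than in Tc1 members.

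Log2 ratios of named genes took the opposite sign as follows. At 2 UMIs they were, in Tc1, -0.40 for Socs1, 0.24 for Lmna, -0.052 for H2-T23, -1.06 for Gzmb, -0.20 for Tnfsf10 and -0.064 for Il4, and in Tc9, 1.04 for Ifitm1, 0.53 for Gzmb, 1.99 for Tyrobp, 1.16 for H2-Eb1, 1.16 for H2-Ab1 and 1.54 for H2-Aa. At 8 UMIs they were -0.89 for Gzmb and -0.056 for Il4 in Tc1 and 0.036 for Hspa1a in Tc9. With cells thinned before the rule they were, in Tc1, 0.22 for Cd4, 0.17 for Mki67, -0.030 for Ptpn6, 0.20 for Ikzf2, 0.51 for Pcna, -0.018 for Ifitm2 and 0.075 for Gprin3, and in Tc9, 0.98 for Ifitm1, 0.44 for Tmem173, 0.68 for Lmna, 0.29 for Dut, 0.027 for Tob2, 0.71 for Hist1h1c, 0.51 for Gmds, 0.86 for Il2ra, -1.97 for Ccl5, 0.43 for Tnfrsf9, 0.34 for Jun, 3.39 for H2-Ab1 and -0.41 for Pecam1. With no macrophage UMI they were, in Tc1, -0.33 for Socs1, 0.24 for Cd4, 0.12 for Top2a, -0.32 for Ptpn6, -0.60 for Tyrobp, -1.73 for H2-Ab1, -1.66 for H2-Aa, -1.87 for Cd74, -1.75 for Ifitm2, 1.01 for Gprin3 and 0.56 for Peak1. With a paired receptor they were 0.053 for Tigit in Tc1, and in Tc9, 0.072 for Tnfrsf4, 0.67 for Il2ra, 0.49 for Tnfrsf9 and 1.40 for Hspa1a. With equal weight per cell H2-Eb1 was at 0.27 in Tc9. Without class II and haemoglobin barcodes they were, in Tc1, -0.67 for Ifitm1, -0.77 for Ifitm2, -0.50 for Ptpn6, -0.23 for Pgam1, -0.43 for Fcer1g, -0.21 for Tyrobp, -0.47 for H2-Eb1, -0.24 for H2-Ab1, -0.12 for H2-Aa and -0.18 for Cd74, and in Tc9, 0.63 for H2-Ab1.

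Shares at 1000 UMIs per cell had members above sum-0 cells for Isg15 (87% against 5.50% in Tc1 and 43.6% against 1.45% in Tc9) and, in Tc9, below them for Areg (2.56% against 14.3%) and Il1rl1 (2.56% against 18.5%), while Areg in Tc1 was at 4.35% against 4.32%. Depth limits genes with 10 or fewer UMIs in members, whose intervals span more than 2-fold.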

Other observations

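Barcodes next to the gate, which enter no comparison above, carried the rule genes in Tc1. Of 595 Tc1 barcodes that passed the Cd3, Cd4 and CD8 conditions but had over 3 macrophage UMIs, 78 (13.1%, exact 95% interval 10.5 to 16.1) had 4 or more rule UMIs, with a median of 11728 UMIs over the 595. That is more barcodes than the 23 members of the library, and their Isg15 level was 397 CPM. Tc1 macrophage barcodes had Isg15 at 477 CPM. In Tc9 the same classes held 21 and 24 barcodes, and 0 of each had 4 or more rule UMIs (exact upper bounds 16.1% and 14.2%).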
